A study of Mus musculus with 2 samples.

Results

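The transcripts described here come from 42 mouse protein-coding genes of splicing regulators. They were chosen by gene symbol: every Srsf and Hnrnp gene, and Tra2a, Tra2b, Ptbp1, Ptbp2, Ptbp3, Rbfox2, Mbnl1, Mbnl2, Celf1, Celf2 and Srrm2. All 42 such genes of the annotation had at least 1 read, out of 16457 annotated genes with a read. Each library was a long-read RNA sequencing run of adrenal gland from a male mouse of the strain B6CASTF1/J, aged 2 months, a cross that carries 1 B6 and 1 CAST genome. The labels name no treatment, so there is 1 group of 2 libraries, replicate 1 and replicate 2, and no contrast between conditions. In the labels the biosamples carry animal numbers 3 (replicate 1) and 4 (replicate 2), but the descriptions of the libraries carry the number 3 in both. The libraries are therefore not shown to be separate animals, and every test below compares these libraries only.

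SR proteins bind exons through RNA recognition motifs and recruit the spliceosome through domains rich in arginine and serine, which SRPK and CLK kinases phosphorylate. Proteins of the hnRNP family coat nascent transcripts and often repress exons, and the PTBP, MBNL, CELF and RBFOX proteins set tissue-specific exon choices. Many of these genes limit their own output by splicing in a poison exon or keeping an intron whose stop codon sends the transcript to nonsense-mediated decay (NMD).

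Short exons and stop-bearing stretches on which the results below turn are printed from the GENCODE M21 transcript sequences (build mm10), 5′ to 3′ on the gene's strand. Cassette exons are shown whole, because a read holds or skips that stretch, and skipping the Ptbp1 34-base exon also shifts the frame. They are the Hnrnpa2b1 exon at chr6:51467391-51467426 (minus strand), the Hnrnpd exon at chr5:99976534-99976590 (minus), the Mbnl1 exons at chr3:60614683-60614736 and chr3:60621423-60621458 (plus), the Mbnl2 exon at chr14:120395712-120395765 (plus) and the Ptbp1 exons at chr10:79860117-79860194 and chr10:79862014-79862047 (plus).
Hnrnpa2b1 36-base exon: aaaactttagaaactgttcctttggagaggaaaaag
Hnrnpd 57-base exon: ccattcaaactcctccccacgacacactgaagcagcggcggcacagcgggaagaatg
Mbnl1 54-base exon: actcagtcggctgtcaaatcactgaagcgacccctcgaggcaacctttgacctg
Mbnl2 54-base exon: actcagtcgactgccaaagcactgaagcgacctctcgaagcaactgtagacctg
Mbnl1 36-base exon: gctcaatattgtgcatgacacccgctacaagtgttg
Ptbp1 78-base exon: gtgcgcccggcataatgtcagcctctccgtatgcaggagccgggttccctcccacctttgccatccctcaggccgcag
Ptbp1 34-base exon: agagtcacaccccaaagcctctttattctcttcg

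The stop-bearing stretches run from the first base of a poison exon, or from the last 9 bases before a kept intron, to the first in-frame stop codon, which is in capitals. The exons start the stretches at chr17:29039454-29039487 (Srsf3, plus strand), chr4:131884276-131884390 (Srsf4, plus), chr16:22259181-22259261 (Tra2b, minus) and chr17:80044976-80045022 (Hnrnpll, minus). The introns lie in the stretches at chr12:80947857-80947874 (Srsf5, plus) and chr17:80205174-80205270 (Srsf7, minus).
Srsf3 456-base exon, start: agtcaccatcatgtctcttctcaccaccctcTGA
Srsf4 207-base exon, start: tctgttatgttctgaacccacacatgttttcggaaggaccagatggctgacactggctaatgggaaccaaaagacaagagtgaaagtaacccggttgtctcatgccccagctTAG
Tra2b 276-base exon, start: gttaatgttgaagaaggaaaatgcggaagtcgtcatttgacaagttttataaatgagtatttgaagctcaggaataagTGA
Hnrnpll 83-base exon, start: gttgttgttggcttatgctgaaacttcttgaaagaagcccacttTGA
Srsf5 1229-base intron, start: agctggcaggtttgtTGA
Srsf7 874-base intron, start: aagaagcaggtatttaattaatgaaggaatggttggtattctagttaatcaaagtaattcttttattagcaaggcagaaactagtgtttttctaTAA

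The deposited tables held 824186 reads in replicate 1 and 656786 in replicate 2 after spike-in reads were set aside. A count of 0 allows up to 3 reads, which is 3.64 and 4.57 CPM (reads scaled to a common library total). Markers of the adrenal cortex summed to 65041 CPM in replicate 1 and 68260 CPM in replicate 2, and those of chromaffin cells to 11295 and 12455 CPM, so the labelled tissue was present in both. Markers of fat cells summed to 18293 CPM in replicate 1 and 10235 CPM in replicate 2, with 5 of 8 tested genes called higher in replicate 1. Markers of red blood cells summed to 1955 and 819 CPM, with 4 of 5 called higher in replicate 1, and connective tissue markers to 946 and 603 CPM, with 2 of 6 called. Every marker in these 5 lists had a read. In bulk tissue, fewer cells of a type and less RNA per cell cannot be told apart, and the part of these cells in the results below was not tested.

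The splicing factors took 4114 of the reads in replicate 1, or 0.499% (Wilson 95% interval 0.484 to 0.515%), and 3748 in replicate 2, or 0.571% (0.553 to 0.589%). Their share was 0.535 ± 0.0506% (mean ± SD, n = 2). Values count reads and are not divided by transcript length. Hnrnp genes (20 genes) gave 2630 and 2301 reads, Srsf genes (11 genes) 1032 and 1026, and the 11 others 452 and 421.

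No splicing factor gene differed between the libraries by the test run over all genes. Of the 36 with at least 20 reads in sum, 0 passed an exact binomial test at an adjusted p under 0.05 and a 2-fold ratio (275 of 8063 genes, 3.41%, did so). None passed the adjusted p alone (11.1% of all genes), and 6 had an unadjusted p under 0.05. All 36 lay within 2-fold, as did 93.4% of all genes. Ratios are given as log2 of replicate 1 over replicate 2, after TMM scaling and with 1 CPM added to each. They ran from -0.47 (Srsf1) to 0.88 (Hnrnpm), with a median of -0.12 against -0.01 over all genes. Of the 36, 12 were higher in replicate 1, against 3970 of 8063 over all genes. With the trend of the ratio over transcript length, taken from all genes, removed, the median of the 36 was -0.01.

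**Figure D1:**
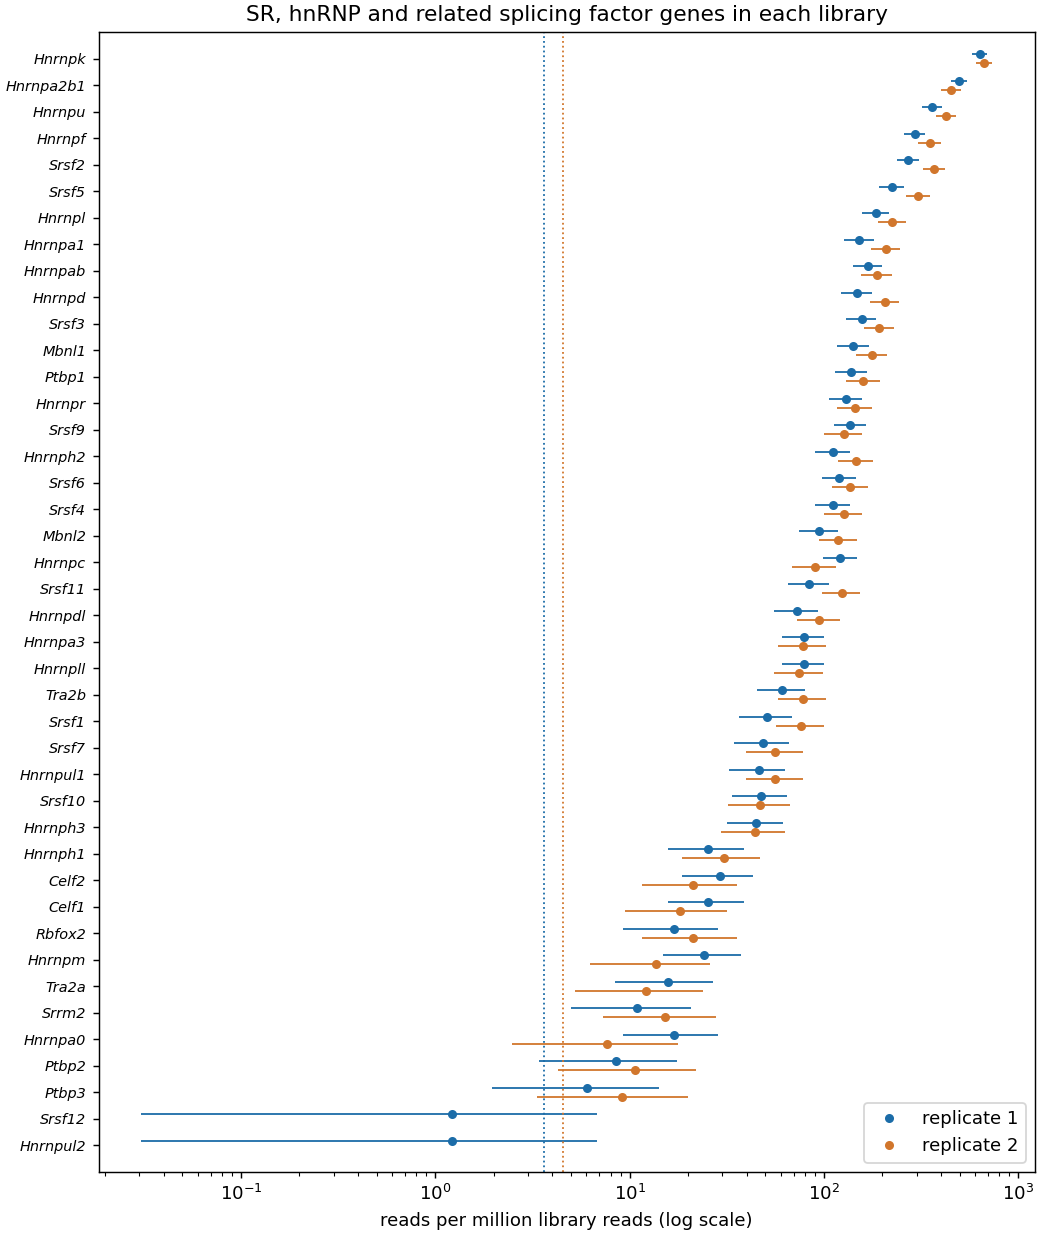
Level of each splicing factor gene (CPM) in replicate 1 (blue) and replicate 2 (orange), on a log axis; bars are exact Poisson 95% intervals and dotted lines mark the floor of 3 reads (3.64 and 4.57 CPM). The highest is Hnrnpk at 635 and 668 CPM, and Srsf12 and Hnrnpul2, with 1 read each in replicate 1, lie under the floor and have no point for replicate 2, where they had 0 reads.

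Among hnRNP genes, Hnrnpk, whose protein binds C-rich RNA through KH domains, had 523 reads in replicate 1 and 439 in replicate 2 (635 and 668 CPM, 651 ± 23.9 CPM, SD, n = 2). Hnrnpa2b1 encodes a pair of proteins, A2 and B1, and had 409 and 297 reads (496 and 452 CPM). Hnrnpu, for the chromatin- and RNA-binding scaffold attachment factor A, had 297 and 279 reads (360 and 425 CPM). These 3 genes held 28.5% of all reads of the set over both libraries.

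Hnrnpf, which binds runs of G, had 242 and 230 reads. Hnrnpl, which binds CA repeats, had 153 and 148, and Hnrnpa1, a repressor of many exons, had 125 and 137. All 3 had lower CPM in replicate 1, and none passed. Hnrnpab had 139 and 123 reads, Hnrnpd, whose AUF1 proteins bind AU-rich elements, 122 and 136, and Hnrnpr 107 and 95. Hnrnpc, a tetramer-forming protein that binds U tracts, went the other way with 100 and 59 reads (log2 ratio 0.53, adjusted p = 0.151 by the exact binomial test with Benjamini-Hochberg adjustment). Hnrnph2 (92 and 96), Hnrnpa3 (65 and 51), Hnrnpll (65 and 49), Hnrnpdl (60 and 62), Hnrnpul1 (38 and 37), Hnrnph3 (37 and 29), Hnrnph1 (21 and 20) and Hnrnpm (20 and 9) had fewer reads, and Hnrnpa0 and Hnrnpul2 had 14 and 5 reads and 1 and 0 reads. Several of these families have processed pseudogenes, so levels of Hnrnpa1, Hnrnpa3 and Hnrnpk are uncertain where reads could match a near-identical copy. Strand handling is also not stated, so reads of an antisense partner cannot be told apart.

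Srsf2, for the factor known as SC35, led the SR genes with 224 reads in replicate 1 and 243 in replicate 2 (272 and 370 CPM, log2 ratio -0.34, adjusted p = 0.0818). Srsf5 followed with 184 and 201 (223 and 306 CPM, log2 ratio -0.35, adjusted p = 0.111). Both were lower in replicate 1, and neither passed. Srsf3, the shortest SR protein, had 129 and 127 reads, Srsf9 113 and 83, Srsf6 99 and 90, and Srsf4 92 and 83. Srsf11 (69 and 81), Srsf1 (42 and 50), Srsf7 (40 and 37) and Srsf10 (39 and 31) were read less often, and Srsf12 had 1 and 0 reads. The SR-like Tra2b, which binds GAA-rich enhancers, had 50 and 51 reads and its paralogue Tra2a 13 and 8. Of the 10 Srsf genes tested, 2 were higher in replicate 1.

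Of the other regulators, Mbnl1 had 117 and 116 reads and Mbnl2 78 and 78; their proteins bind YGCY motifs and are sequestered by CUG repeats in myotonic dystrophy. Ptbp1, which binds pyrimidine tracts and is widely expressed outside neurons, had 114 and 105 reads, against 7 and 7 for its neural paralogue Ptbp2 and 5 and 6 for Ptbp3. Celf2 (24 and 14), Celf1 (21 and 12), Rbfox2 (14 and 14) and Srrm2, a scaffold protein of nuclear speckles (9 and 10), were sparse.

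Over pooled reads, splicing factors had a lower share of coding reads and a higher share of new forms than other protein-coding genes. Reads matching an annotated coding transcript made up 60.9% of their reads in replicate 1 (Wilson interval 59.4 to 62.4%) and 60.9% in replicate 2 (59.4 to 62.5%), or 60.9 ± 0.035% (SD, n = 2). In other protein-coding genes the share was 78.3% and 77.9%. New spliced forms, meaning chains of introns in no annotated transcript, took 24.2% and 24.7% of splicing factor reads and 7.37% and 9.29% of other reads. Hnrnpk alone held 492 and 412 of the 994 and 926 new-form reads, and without it the mean share of new forms was 14.8%, against 24.4 ± 0.385% with it (SD, n = 2). The coding share without Hnrnpk was 69.4%. In pooled reads the most abundant genes weigh most, and a mean of per-gene shares is not given for other genes. No test over genes was made.

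Transcripts that the annotation types as NMD targets held 40 and 28 reads, or 0.972% (0.715 to 1.32%) and 0.747% (0.517 to 1.08%), against 0.210% and 0.247% in other protein-coding genes. These were 15 of 49 annotated NMD-typed transcripts, in 12 of the 26 genes that have one. Within genes that have such an annotated transcript the shares came closer, at 1.29% and 0.977% in splicing factors and 0.821% and 0.942% in others. Transcripts typed as retained intron held 19 and 45 reads, or 0.462% (0.296 to 0.720%) and 1.20% (0.899 to 1.60%), against 0.691% and 0.669%. They were 23 of 107 annotated transcripts of that type, in 17 of 32 genes. Incomplete splice matches held 10.7% and 10.6%, and reads of the genomic class, which match no splice pattern, 2.77% and 1.81%. The intervals of the retained-intron and genomic classes did not overlap between the libraries. Genomic-class reads were also a higher share of other protein-coding genes in replicate 1, at 4.62%, against 3.23% in replicate 2.

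**Figure D2:**
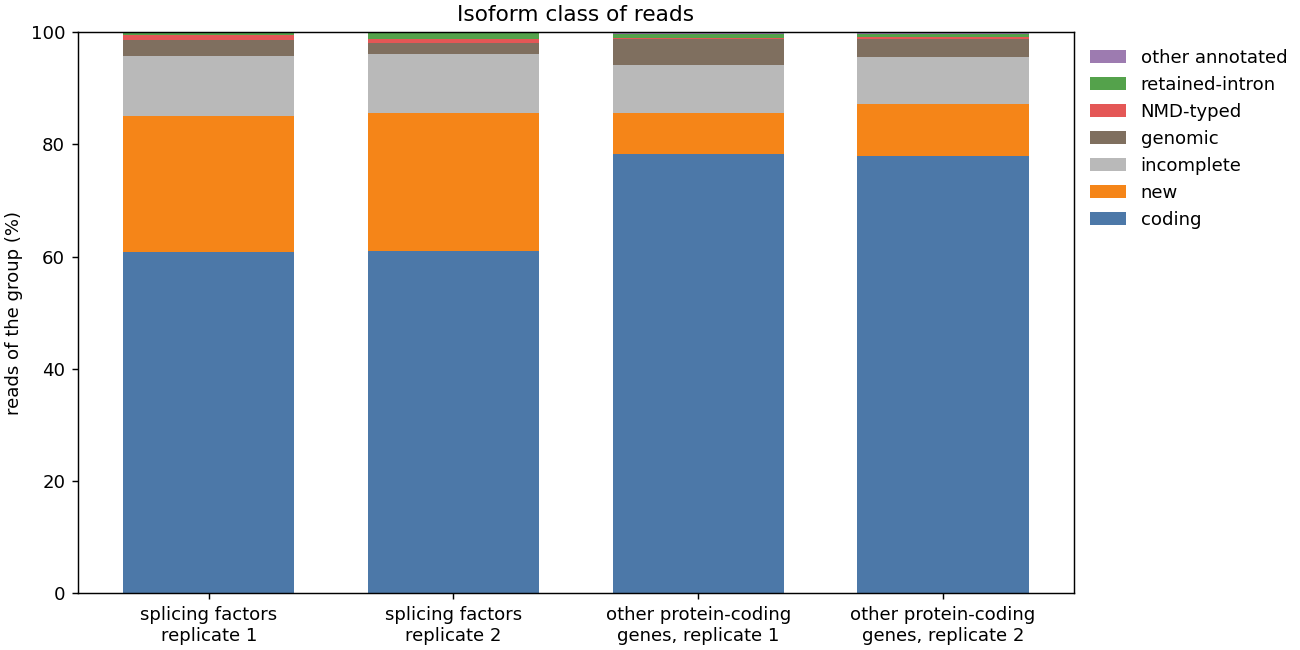
Share of reads (%) by isoform class, stacked to the total, for the 42 splicing factor genes (left pair of bars) and all other protein-coding genes (right pair), replicate 1 left of replicate 2 in each pair. The orange block of new forms is 24.2% and 24.7% in splicing factors and 7.37% and 9.29% in other genes, and Hnrnpk holds 492 of the 994 and 412 of the 926 reads in it.

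The most abundant form of a gene held a smaller share in splicing factors than over all genes. In the 31 splicing factor genes read 20 times or more in both libraries, that form held a median of 50.4% of a gene's reads, against 79.2% over all 5334 genes tested. Averaged over the libraries, that form stayed under 50% in 15 of the 31 (48.4%, against 17.6% of all genes) and reached 90% in 4 (12.9%, against 24.4%). The 4 were Hnrnpu-201 with 92.9% and 89.96%, Srsf6-203 with 91.9% and 91.1%, Srsf9-201 with 89.4% and 94.0%, and Srsf3-202 with 91.5% and 89.8%. Between the libraries, 0 of the 31 differed by Fisher's exact test at an adjusted p under 0.05 and 10 percentage points (31 of 5334 genes, 0.581%, did), and 2 had an unadjusted p under 0.05. These were Srsf5-201, at 37.5% in replicate 1 and 21.9% in replicate 2 (adjusted p = 0.102 by Fisher's exact test), and Hnrnpa1-202, at 54.4% and 70.8% (adjusted p = 0.332).

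**Figure D3:**
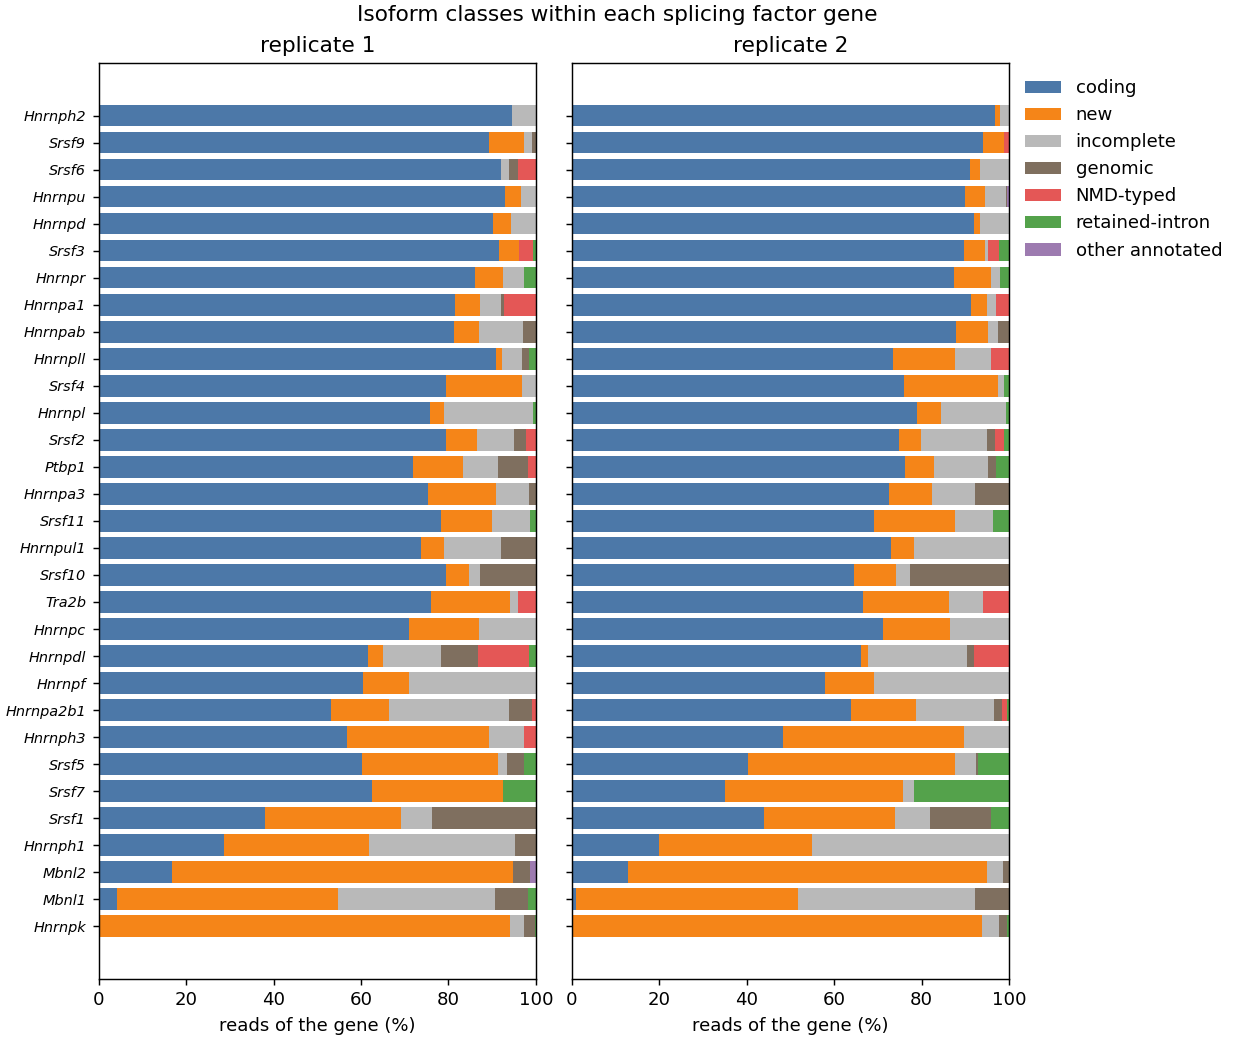
Isoform classes (% of the gene's reads) in each splicing factor gene read 20 times or more in both libraries, replicate 1 left and replicate 2 right, genes ordered by their coding share. Coding transcripts fill most of Hnrnph2 (94.6% and 96.9%), while new forms fill Hnrnpk (94.1% and 93.8%) and Mbnl2 (78.2% and 82.1%).

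In Hnrnpk, whose reads were mostly new forms, none of the 523 and 439 reads matched an annotated coding transcript, which allows up to 0.574% and 0.683%. Among the new forms, 7 intron chains had 3 reads or more in both libraries, and every one of the 7 held the same junction, chr13:58393775-58394059, which no annotated transcript has. An annotated 16-base exon lies inside this interval, and the annotated exon before it, of 84 bases, ends 16 bases earlier and is lengthened to 100 bases in these reads. The small exon at chr13:58393853-58393868 and the end of the lengthened exon at chr13:58394056-58394087 (both minus strand) are shown to compare them, with the 16 added bases in capitals and the 4 bases after them, where the intron begins.
Hnrnpk annotated 16-base exon: ggtggttctggatatg
Hnrnpk lengthened exon end: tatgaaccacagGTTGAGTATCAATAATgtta

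The swap leaves the length of the transcript unchanged, and 8 of the 16 added bases are the same as in the small exon at the same position. It was seen in 479 of 523 and 396 of 439 Hnrnpk reads. The deposited models give coordinates and not read bases, so whether those reads carried the small exon's bases was not tested. Among all protein-coding genes, 13 had a read in which an annotated exon of at most 30 bases was skipped and a neighbour lengthened by the same number of bases. Besides Hnrnpk, most reads of Pitpnb (72 of 74 and 66 of 69) and Rwdd4a (24 of 28 and 22 of 27) did so. Read with the reference bases that annotated transcripts hold there, the lengthened exon of Hnrnpk brings a stop codon after 368 residues in the 4 most abundant forms, where annotated full-length forms have 464 or 463, and the early-stop shares below are given with and without Hnrnpk. A further difference was one of labels: the second Hnrnpk chain, with 140 and 109 reads, was classed as holding a new splice site in replicate 1 and as a new combination of known sites in replicate 2, and 14 new chains of the set were classed differently in the libraries.

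The set had 369 new chains, of which 235 had a single read and 107 were found in both libraries. At least 3 reads in each library supported 33 chains in 15 genes, with 722 and 659 reads. Of these, 22 chains in 10 genes used annotated junctions alone (224 and 251 reads), and 11 in 5 genes held a junction in no annotated transcript (498 and 408 reads).

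The muscleblind genes were read mostly as new combinations of annotated exons. In Mbnl2, 1 chain of 7 exons held 50 of 78 and 52 of 78 reads (64.1% and 66.7%), and its frame ran to 361 residues. A second Mbnl2 chain, of 8 exons, held 4 and 5 reads and ran to 379 residues. Mbnl1 spread over 4 such chains with 16 and 21, 11 and 13, 8 and 8, and 5 and 4 reads of 117 and 116, and annotated coding transcripts matched 5 and 1 of its reads. Celf2 had 2 such chains, with 9 and 6 and with 4 and 3 reads of 24 and 14.

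Other new chains changed less. The Hnrnpa2b1 chain with 35 and 26 reads (8.56% and 8.75%) kept the 341 residues of the annotated A2 protein, and a smaller one, with 3 and 3 reads, ran to 313 residues. In Hnrnpf, 23 and 16 reads joined a first exon over chr6:117907880-117917469, a junction in no annotated transcript, ahead of an unchanged reading frame of 415 residues. A Tra2b chain with 8 and 7 reads used a new junction, chr16:22247261-22248435, and encoded 287 residues, against 288 in the annotated protein. Hnrnph1 and Hnrnph3 each had 1 chain with a new junction and 3 and 3 reads.

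Frames were then read from the annotated start codon in every spliced form, on the reference (B6) sequence, a description added after the values above had been seen. A stop codon more than 50 bases before the last junction was called early, the usual rule for an NMD target. Of reads of annotated NMD-typed transcripts of the set, 39 of 40 and 25 of 28 had such a stop by this reading, against 21 of 2505 and 19 of 2284 reads of coding transcripts. The annotated type may rest on the same rule, so this is no independent check. Early stops of any class held 726 reads in replicate 1 (17.6%, 16.5 to 18.8%) and 704 in replicate 2 (18.8%, 17.6 to 20.1%). Without Hnrnpk they held 231 of 3591 (6.43%, 5.68 to 7.28%) and 289 of 3309 (8.73%, 7.82 to 9.74%), and without Hnrnpk and Srsf5 5.34% and 5.95%. The share in other protein-coding genes was 3.12% and 3.94%. Early-stop reads outside Hnrnpk were mostly new forms, 155 and 213, with 39 and 25 in NMD-typed and 9 and 22 in retained-intron transcripts.

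Early stops came in different kinds. In one the stop codon is that of any annotated coding transcript of the gene, and a junction lies more than 50 bases behind it. This kind held 2.14% and 1.92% of splicing factor reads, 2.45% and 2.15% without Hnrnpk, and 0.559% and 0.678% of other reads. Hnrnpdl had 8 of 60 and 5 of 62 such reads, Srsf1 12 of 42 and 13 of 50, Srsf2 19 of 224 and 18 of 243, Hnrnpa2b1 25 of 409 and 22 of 297, Hnrnpa1 11 of 125 and 7 of 137, and Hnrnph3 5 of 37 and 4 of 29. Of the Srsf1 reads, 6 and 5 were of 1 new chain that ended after 201 residues, the length of annotated Srsf1-201. Its stop lay inside a kept 196-base intron. In the other kind, the first in-frame stop ends no annotated coding transcript. An exon, a kept intron or a skipped coding exon can bring such a stop. Apart from Hnrnpk, the most such reads were in Srsf5 (49 of 184 and 104 of 201), Srsf4 (16 of 92 and 18 of 83), Srsf7 (11 of 40 and 17 of 37), Srsf3 (10 of 129 and 9 of 127), Ptbp1 (11 of 114 and 6 of 105), Hnrnpu (6 of 297 and 11 of 279) and Srsf11 (3 of 69 and 10 of 81).

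Some annotated exons lie in NMD-typed but in no coding transcript, and are called NMD-only here whether or not they hold the stop codon. Of 28 that reads held or spanned, 21 in 14 genes had a read. Summed over exons, the counts were 90 and 91, in which a read with several such exons counts for each of them. Srsf4 had 3 such exons with the most reads. Its 207-base exon, printed above, was held by 14 of 88 reads in replicate 1 (15.9%, 9.72 to 24.95%) and 15 of 79 in replicate 2 (19.0%, 11.9 to 29.0%). The 184-base exon stood at 16.1% and 17.1%, and the 174-base exon at 14.0% and 22.2%. A new chain of 9 exons, with 10 of 92 and 10 of 83 reads, ended its frame after 73 residues, where the annotated Srsf4 protein has 491. No Srsf4 read matched an NMD-typed transcript in either library, which allows up to 3.26% and 3.61%. Outside coding transcripts the gene had 16 and 18 reads of new forms, 3 and 1 incomplete splice matches and 0 and 1 retained-intron reads. The reads that hold these exons were not split by class.

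The 456-base exon of Srsf3 was held by 4 of 123 reads (3.25%) and 3 of 118 (2.54%), and its frame stops 34 bases into the exon. The 276-base exon of Tra2b was held by 3 of 48 (6.25%) and 5 of 46 (10.9%). In Hnrnpdl, a 105-base NMD-only exon outside the coding sequence was held by 9 of 43 (20.9%) and 5 of 41 (12.2%). The Hnrnpdl reads listed above use the stop codon of an annotated coding transcript. Hnrnpdl-201, with 7 and 5 reads, was the only NMD-typed transcript of the set with at least 5 reads in each library. Libraries differed most in Hnrnpll, whose protein sets CD45 splicing in lymphocytes: its 83-base exon was held by 1 of 60 reads in replicate 1 (1.67%, 0.295 to 8.86%) and 8 of 47 in replicate 2 (17.02%, 8.89 to 30.1%), with p = 0.00977 by Fisher's exact test before adjustment and an adjusted p of 1. The 70-base exon of Hnrnpl was held by 0 of 128 reads, which allows up to 2.34%, and 6 of 132 (4.55%). The 268-base exon of Srsf6 was held by 4 of 95 (4.21%) and 0 of 85, which allows up to 3.53%. The NMD-typed share of a gene's reads was compared in 11 members, of which 0 were called and 0 had an unadjusted p under 0.05 (1 of 371 genes, 0.27%, was called).

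**Figure D4:**
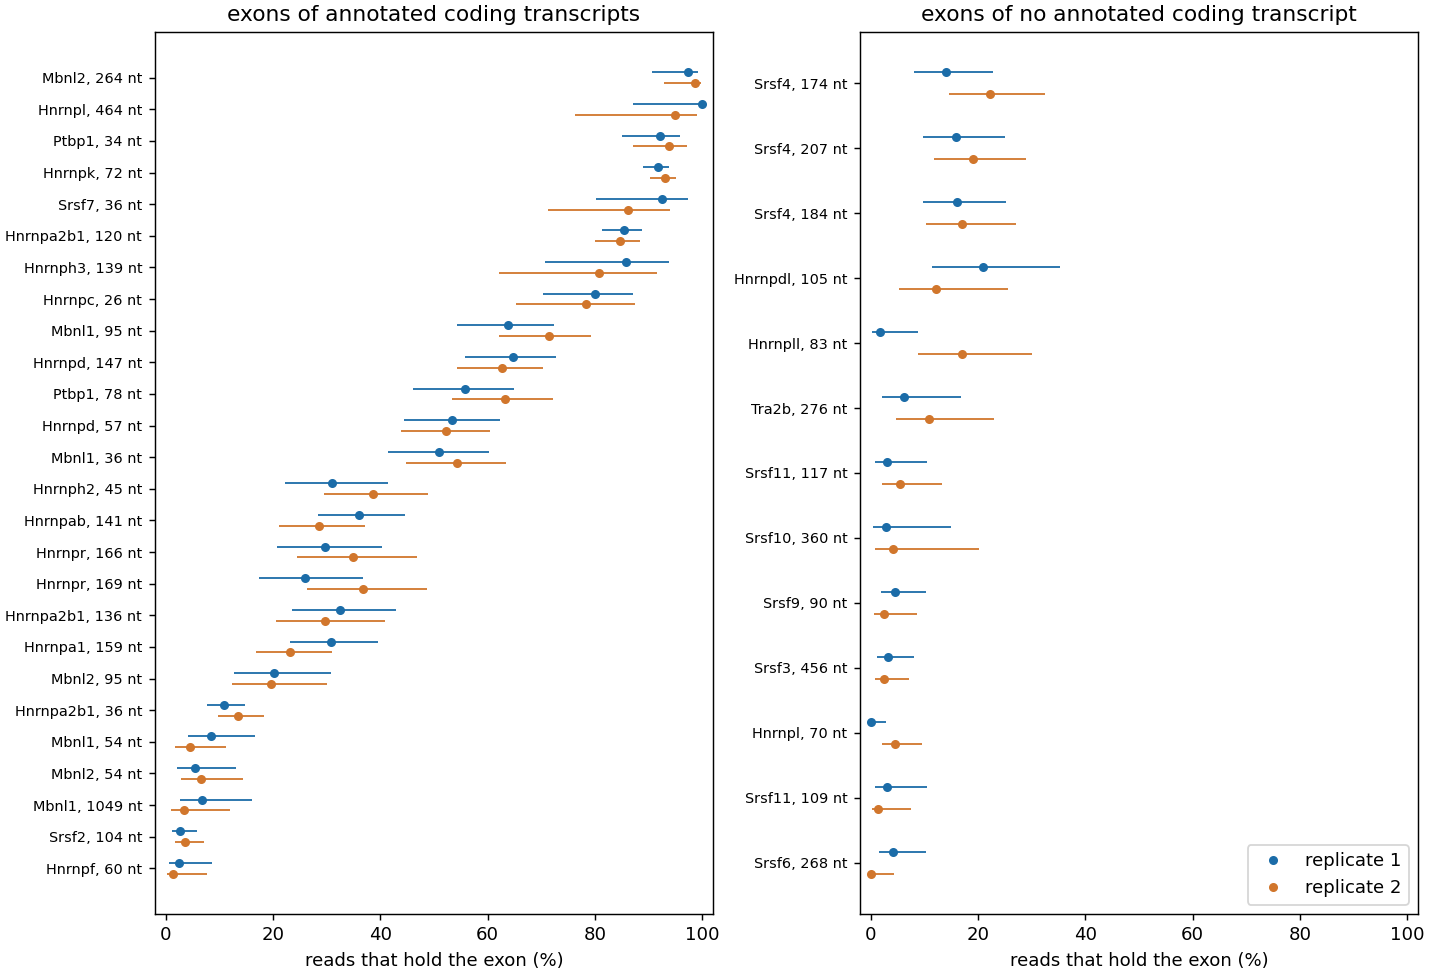
Share of reads that hold each tested internal exon (%) with Wilson 95% intervals, replicate 1 in blue and replicate 2 in orange, for exons of annotated coding transcripts (left) and of no coding transcript (right), named by gene and length. Exons on the left range from Mbnl2's 264-base exon (97.3% and 98.7%) to Hnrnpf's 60-base exon (2.50% and 1.45%). The Hnrnpf exon lies outside the coding sequence, and its 2 of 80 and 1 of 69 reads are under the floor of 3. Exons on the right reach at most 22.2% (Srsf4, 174 bases, replicate 2).

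Cassette exons of coding transcripts ranged from mostly skipped to mostly held, and the libraries lay up to 10.8 points apart (Hnrnpr, 169 bases). Across both kinds, 39 exons in 25 genes were tested, and 0 differed between the libraries (1 of 2590 exons over all genes, 0.0386%, did), with 2 at an unadjusted p under 0.05. Of the 39, 26 lay in coding transcripts and 12 were NMD-only, and 23 had lengths divisible by 3. The 36-base exon that turns A2 into B1 was held by 32 of 296 Hnrnpa2b1 reads in replicate 1 and 34 of 251 in replicate 2 (12.2 ± 1.93%, SD, n = 2), so most reads lacked the stretch that marks B1. The 120-base exon of the same gene was held by 85.1 ± 0.487%. In Hnrnpd, a 57-base and a 147-base exon together give the 4 AUF1 proteins. They were held by 62 of 116 and 70 of 134 reads (52.8 ± 0.855%) and by 77 of 119 and 84 of 134 (63.7 ± 1.43%). All 4 combinations were read as annotated coding transcripts: Hnrnpd-211 36 and 43 times, Hnrnpd-203 33 and 35, Hnrnpd-201 22 and 21, and Hnrnpd-202 19 and 26. No combination held more than 31.6% of the gene's reads in either library.

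The 54-base exons of Mbnl1 and Mbnl2, which are related (46 of 54 bases are the same at the same position) and are known to carry part of a nuclear localization signal, were mostly skipped. Mbnl1 reads held it in 7 of 82 and 4 of 87 cases (6.57 ± 2.79%) and Mbnl2 reads in 4 of 74 and 5 of 76 (5.99 ± 0.830%). Further along, the 95-base exon, which shifts the frame of the last part of the protein, was held by 67 of 105 and 75 of 105 Mbnl1 reads (67.6 ± 5.39%) but by 15 of 74 and 15 of 76 Mbnl2 reads (20.0 ± 0.377%), a difference between the paralogues above the spread between the libraries. The 36-base exon of Mbnl1 was held by 53 of 104 and 57 of 105 reads (52.6 ± 2.35%).

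Ptbp1 held its 78-base exon, which lengthens the linker between RNA-binding domains, in 58 of 104 and 62 of 98 reads (59.5 ± 5.30%). Its 34-base exon, whose skipping shifts the frame and is known to lead to NMD where Ptbp1 represses itself, was held by 92.1% and 93.8% of the reads that span it (92.9 ± 1.23%). Hnrnpk held a 72-base exon in 455 of 496 and 390 of 419 reads (92.4 ± 0.951%). Hnrnpab's 141-base exon (32.3 ± 5.32%), Hnrnpa1's 159-base exon (27.0 ± 5.44%) and Hnrnph2's 45-base exon outside the coding sequence (34.9 ± 5.43%) were each held by 23.1 to 38.7% of reads. In Hnrnpr, 2 versions of 1 exon, with different starts and the same end, were counted apart. The 169-base version was held by 20 of 77 and 25 of 68 reads (26.0% and 36.8%). The 166-base version was held by 24 of 81 and 23 of 66 (29.6% and 34.8%). Reads with the other version were left out of each count, so the exon as a whole was held more often than either value. The 26-base exon of Hnrnpc, also outside the coding sequence, was held by 79.2 ± 1.11%, and the 139-base exon of Hnrnph3 by 83.2 ± 3.50%.

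Intron retention gave the 1 difference between the libraries that passed in this set, in Srsf5. For each intron of an annotated coding transcript, in or outside the coding sequence, spliced reads that hold it whole were counted against those that splice it. An intron of 1 coding transcript can lie in an exon of another, so reads that hold it can be annotated coding forms. The comparison was added after the values above had been seen. The 1229-base Srsf5 intron at chr12:80947866-80949094 was held by 43 of 170 reads in replicate 1 (25.3%, 19.4 to 32.3%) and 95 of 186 in replicate 2 (51.1%, 43.9 to 58.2%), with an adjusted p of 0.000134 by Fisher's exact test over 3145 introns. The intervals did not overlap. Over all genes 20 introns in 18 genes (0.636%) were called, 17 of them held less in replicate 1. As the printed stretch shows, the stop codon ends at base 9 of the intron, after 124 of the 269 or 270 residues of Srsf5.

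Retention in Srsf5 was mostly in new chains, with 18 and 41, 5 and 14, and 4 and 9 reads, while the one annotated retained-intron transcript of Srsf5 that was read had 5 and 14. With annotated transcripts alone, 5 of 116 and 14 of 95 reads held the intron and the call was lost (adjusted p = 0.407). Without incomplete splice matches it was 40 of 167 and 89 of 180 (adjusted p = 0.000299). Coding Srsf5 transcripts took 60.3% of the gene's reads in replicate 1 and 40.3% in replicate 2. Counts of the gene as a whole, 184 and 201 reads, did not differ by the test.

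Over all genes, retention was generally lower in replicate 1, with a median difference of -2.63 points and 941 introns held more against 2184 held less. The median over the 29 introns tested in 13 splicing factor genes was -5.19 points, with 5 held more and 24 held less, and 4 at an unadjusted p under 0.05. Introns that overlap are counted apart, so these are not 29 independent events, and some are held by annotated coding forms. The 502-base Srsf2 intron was held by 203 of 218 and 220 of 239 reads. The annotated coding form Srsf2-201 made up 178 of 224 and 182 of 243 reads of that gene. The share of genomic-class reads was higher in replicate 1 (2.77%, against 1.81% in replicate 2), as were fat and red blood cell markers, and the part of either was not tested. Ddx5, an RNA helicase with an established role in splicing, held a 1265-base intron in 128 of 568 and 288 of 668 reads (22.5% and 43.1%, adjusted p = 7.72e-12 by Fisher's exact test).

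**Figure D5:**
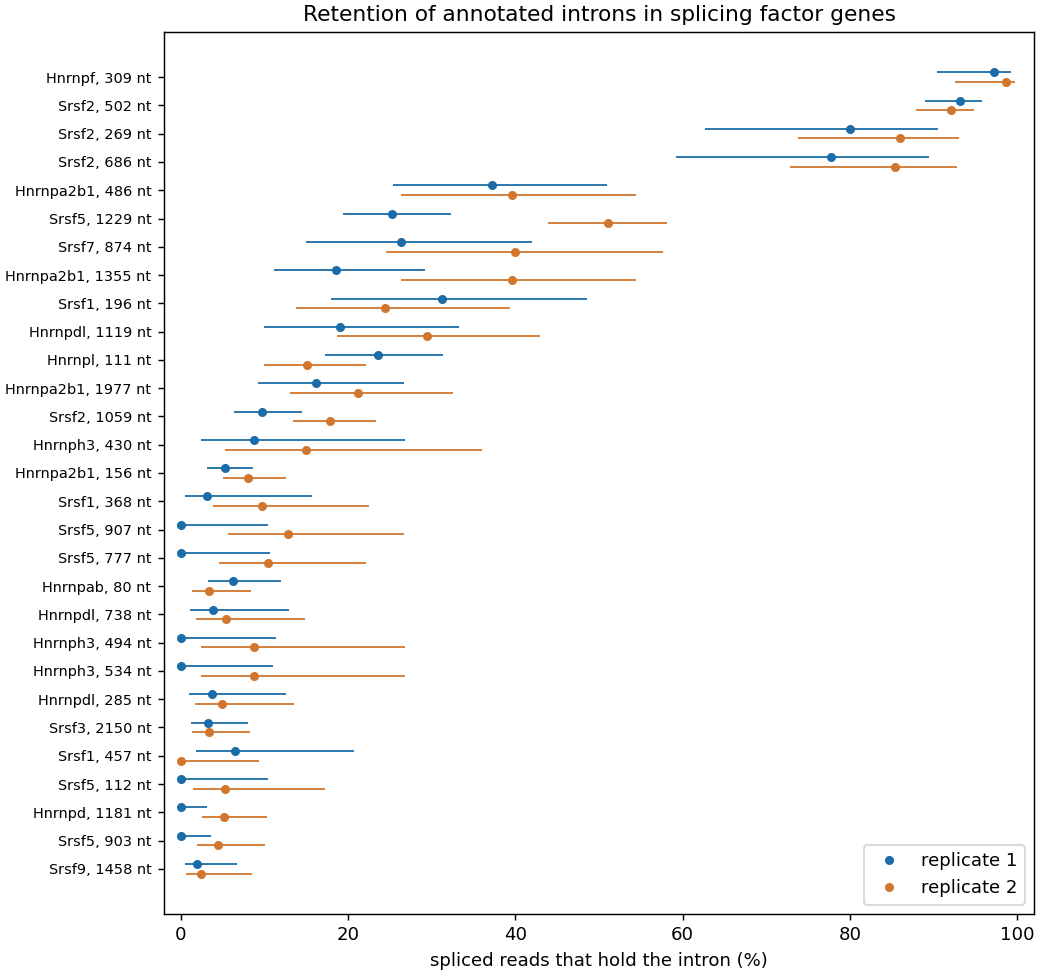
Share of spliced reads that hold each tested intron of coding transcripts of the splicing factor genes (%) with Wilson 95% intervals. Replicate 1 is in blue and replicate 2 in orange, and introns are named by gene and length. Reads that hold an intron can be annotated coding forms. The Srsf5 1229-base intron, at 25.3% and 51.1%, is the 1 intron of 29 called, and 4 introns, 3 of Srsf2 and 1 of Hnrnpf, are held by 77.8% or more in each library.

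Srsf7, a zinc-knuckle SR protein, held its 874-base intron in 10 of 38 and 12 of 30 reads (adjusted p = 0.927), and its coding share was 62.5% and 35.1%. Srsf2 held a 1059-base intron in 20 of 207 and 41 of 230 reads (9.66% and 17.8%, adjusted p = 0.409). Hnrnpa2b1 held a 1355-base intron in 13 of 70 and 17 of 43 (18.6% and 39.5%, adjusted p = 0.399). Hnrnpd held a 1181-base intron in 0 of 117, which allows up to 2.56%, and 7 of 135 (5.19%, adjusted p = 0.390). None of these passed. Hnrnpl went the other way, with a 111-base intron held by 32 of 136 and 20 of 133 reads (23.5% and 15.0%, adjusted p = 0.757). Srsf3 held its 2150-base intron in 4 of 123 and 4 of 119 reads (3.31 ± 0.0773%), and Srsf1 a 196-base intron in 10 of 32 and 10 of 41 (27.8 ± 4.85%).

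Genes of the wider splicing machinery, from lists of kinases, spliceosome, NMD and RNA-binding proteins, were tested in the same fit. Of 6 kinases that phosphorylate SR proteins, Clk2 had 38 reads in replicate 1 and 64 in replicate 2 (46.1 and 97.4 CPM). Its log2 ratio after TMM scaling was -0.96 (adjusted p = 0.0128 by the exact binomial test), short of 2-fold. The CPM values, scaled to library totals alone, lie more than 2-fold apart. By the TMM-scaled test 0 of the 6 were called, against 3.41% of all genes. Clk1 had 18 and 32 reads (log2 ratio -1.02, adjusted p = 0.105) and Clk4 30 and 41. Of 12 spliceosome genes and 6 tested NMD factors, 0 passed even the adjusted p alone (11.1% of all genes did). Among 21 tested RNA-binding regulators, Ddx5 passed that p, with 605 and 684 reads (log2 ratio -0.40, adjusted p = 1.71e-05), and 0 were called. Of 18 neural or tissue-restricted family members, 3 had no read and 3 had enough to test, with Khdrbs3, the KH-domain regulator SLM2, highest at 114 and 89 reads, and 0 were called.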

How the data were processed

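Adrenal gland RNA was measured by long-read sequencing in 2 libraries of 1 group. The authors deposited raw counts, whole reads per transcript model with no normalization, in 1 table per library, and the models' exons on mm10. Per the deposited notes, annotation was GENCODE M21, and per the source field the models came from TALON. The sources used here do not name the aligner, platform, strand handling or versions.

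ERCC spike-in reads were set aside, and reads were summed per gene over all classes. New forms were matched between libraries by intron chain. Libraries were scaled by TMM (edgeR 4.0.16, R 4.3.3), with DESeq2 1.42.0 size factors as an alternative. The quasi-likelihood test of edgeR has no residual degrees of freedom here, so two-sided exact binomial tests (at least 20 reads in sum) and Fisher's exact tests (at least 20 reads in each library) were used. Both carry Benjamini-Hochberg adjustment over all features, and shares also had to differ by 10 percentage points. Exons and introns were tested where 2 to 98% of pooled reads held them. Intervals are Wilson 95%, and they and the floors (3 reads) account for counting error alone, as no molecular identifiers are given. Calculations used Python 3.11.15, scipy 1.17.1, numpy 2.4.6, pandas 2.3.3 and matplotlib 3.10.9. The tests were also run on simulated data, which does not show that their p-values hold for these libraries. Gene counts of the libraries lay further apart than counting error alone would give. The ratio of chi-square to its degrees of freedom came to 4.01 for 9977 genes and 1.36 for 40 splicing factor genes. The binomial and Fisher tests allow for counting error alone, so their p-values can be too small.

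The members and lists were chosen with earlier results of these data known. The rule for naming covered members with at least 20 reads in sum, and NMD-typed and retained-intron transcripts with at least 5 per library. It also covered dominant transcripts of members with at least 50 reads per library, new forms with at least 3 per library, and tested exons. Of the dominant transcripts, new forms and tested exons, only a part is named in the text. Introns, frames and the Hnrnpk exon swap were added after values were seen, and Pitpnb and Rwdd4a were named on sight of theirs. Genome sequence and protein sequences were not used here.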

Additional observations from a re-analysis of the deposited data

How the results depend on the processing

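No paired analysis was possible because both libraries belong to 1 group. Over all genes, the 275 calls became 119 with the length trend removed and 893 by adjusted p alone. Calls higher in replicate 1 were 190 of 275 with TMM, 131 of 259 with library totals and 235 of 304 with DESeq2 size factors. Library totals moved the median log2 ratio of all genes to -0.11. With library totals, TMM and size factors, 11, 12 and 13 of the 36 splicing factors were higher in replicate 1. Over all 8063 genes these counts were 3311, 3970 and 4291. The median log2 ratio of the 36 was -0.12 with TMM and -0.01 with the length trend removed. For splicing factors the count of genes called stayed 0 in the alternatives run, but 2 passed by adjusted p without the fold when scaled to library totals, and 1, Srsf5, after the length trend was taken out (log2 ratio -0.47, adjusted p = 0.0296 by the exact binomial test). Dominant transcripts called over all genes fell to 2 with annotated transcripts only, where exon calls fell to 0. Leaving out genomic-class reads added 1 dominant-transcript call in the set, Srsf5-201 (39.0% and 22.0%, adjusted p = 0.0469 by Fisher's exact test). Introns called over all genes were 2 with annotated transcripts only and 12 without incomplete splice matches, and in the set 0 and 1.

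As a mean of per-gene shares within the set, coding reads were 66.1%, NMD-typed 1.06% and new forms 19.0%. Without the genomic class, coding reads were 62.3% and new forms 25.01%. Without Hnrnpk, coding reads were 69.4%, new forms 14.8%, early stops 7.58% and the share of the library 0.470%. With annotated transcripts only, coding reads were 97.3%, NMD-typed reads 1.37% and the share of the library 0.335%. Leaving out 1 library gave shares of the library of 0.499 to 0.571%, coding 60.9%, NMD-typed 0.747 to 0.972%, retained-intron 0.462 to 1.20%, new forms 24.2 to 24.7% and early stops 17.6 to 18.8%. With 2 libraries these are the values of each library given above, and add no further check. Depth is one limit: at 20 reads a gene the interval of a share is wide, so an absent call does not show that shares are equal.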
